A study of Mus musculus with 6 samples.

Results

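The genes described here encode the endothelin and angiotensin systems of the mouse heart: the ligand precursors *Edn1*, *Edn3* and *Agt*, the processing enzymes *Ece1* and *Ace*, and the receptors *Ednra*, *Ednrb*, *Agtr1a* and *Agtr2*. They were chosen by symbol, and 8 of the 9 were among the 19079 genes listed by the authors. *Edn3*, which encodes endothelin 3, was not among them. The lowest summed value of any listed gene was 9.39 normalized counts over the 6 libraries.

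The libraries came from littermates at postnatal day 10, labelled C57BL/6 and described in the methods as C57Bl/6J. All of the mice carried Myh6-CreER, a tamoxifen-inducible Cre driven by a cardiomyocyte promoter, and all were given tamoxifen on postnatal days 0 and 1. The 4 *Runx1* OE samples also carried the Rosa-Runx1 overexpression allele, whereas the 2 Myh6-CreER controls did not. RNA was taken from ventricular tissue, named as left ventricle in the extraction protocol and as whole ventricle in the design text. The tissue holds cardiomyocytes together with vascular, connective tissue and blood cells, so fewer cells of a type and less RNA per cell cannot be told apart. Whether a library pooled several animals was not given in the sources used here.

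Both systems make small vasoactive peptides from larger precursors and act through G protein-coupled receptors. Endothelin 1 is cut from its precursor by furin-type convertases and then by endothelin-converting enzyme, and it binds the receptors ETA and ETB. In the heart it comes largely from endothelial and endocardial cells, ETA is found on cardiomyocytes and vascular muscle, and ETB is prominent on endothelium. Angiotensinogen is cut by renin and then by angiotensin-converting enzyme to give angiotensin II, whose type 1 receptor raises vascular tone and promotes growth of cardiomyocytes and fibroblasts. The type 2 receptor often opposes the type 1 receptor.

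Levels are the authors' group means of normalized counts, that is, reads assigned to a gene divided by a size factor of the library. A value could not be tied to an individual sample, so the differences carry no SD and no test. What the libraries of a group could hold was instead bounded from the authors' group means, their mean and geometric mean over all 6 libraries and the highest value in any of them. These bounds are called library limits here, and where the limits of the groups do not overlap, every *Runx1* OE library lay on the same side of both controls. Differences are log2((*Runx1* OE mean + 1) / (control mean + 1)), and a gene was counted as higher or lower at 1.5-fold or more, which is 0.58 on that scale.

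The targeted gene matched the labels. *Runx1* averaged 16622 normalized counts with *Runx1* OE, against 40.2 in the controls, and its library limits were 5068 to 25321 and 13.8 to 66.5. The groups also differed in *Xist*, an RNA made from the inactive X chromosome of females, with means of 4584 and 8.92 normalized counts. No control library could exceed 18.0, and at least 3 of the 4 *Runx1* OE libraries were above every control. Sex and genotype therefore cannot be told apart in any difference given here. *Agtr2* is the X-linked gene among the members.

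*Edn1* was 1.65-fold higher and *Ece1* 1.51-fold higher, whereas *Ednra* was 1.47-fold lower and *Ednrb* differed by 0.25 on the log2 scale. In the angiotensin system, *Agt* was 1.505-fold lower by the ratio of the means, and *Agtr1a*, *Agtr2* and *Ace* differed by less. On the log2 scale, which adds 1 to each mean, *Agt* was at -0.581 and just short of the threshold of 0.585, so it is not counted as lower. Of the 8 members, 2 were at least 1.5-fold higher, where 5.18% of the 15181 genes tested (overall mean of 10 normalized counts or more) were, and 0 were at least 1.5-fold lower, where 3.76% were. The library limits did not overlap for 1 member, *Ednra*, which was lower. Over the genes with limits, 4.12% were separate in that direction and 1.13% in the other. The median difference was 0.15 over the members and 0.01 over all of these genes, with 5 members above 0 and 3 below.

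**Figure D1:**
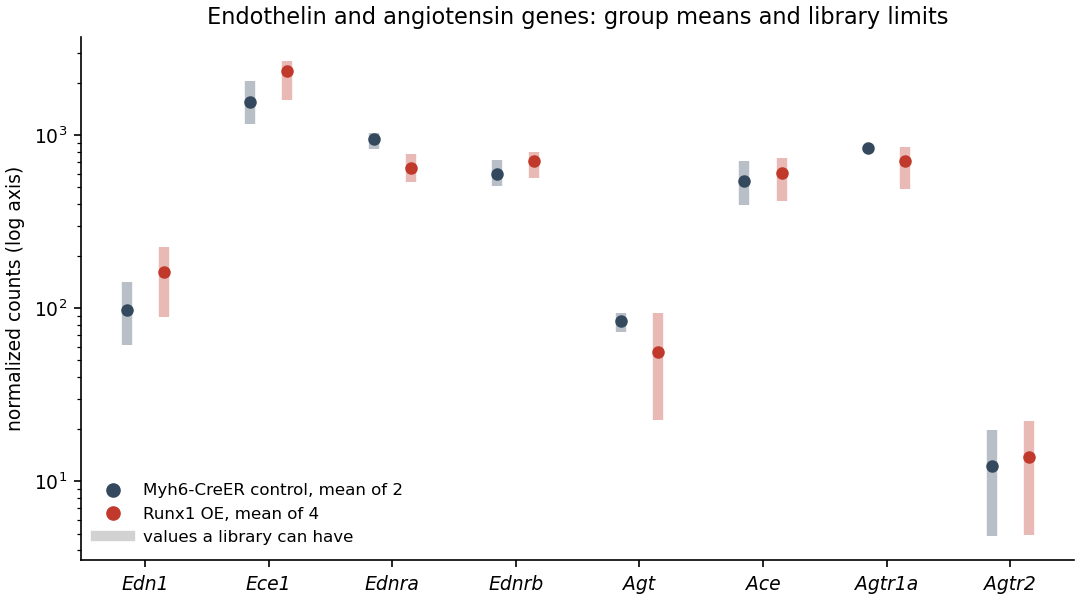
Normalized counts (log axis) of the 8 listed genes, with the authors' mean of the 2 Myh6-CreER controls and of the 4 *Runx1* OE libraries as points and the library limits as pale bars. The bars of *Ednra* are apart, at 838 to 1030 in the controls and 534 to 778 in *Runx1* OE, and those of the other genes overlap.

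*Edn1* encodes the precursor of endothelin 1 (ENSMUSG00000021367, GRCm39 chromosome 13, 42454952 to 42461466, plus strand). Its mean was 162 normalized counts in *Runx1* OE and 98.3 in the controls, a log2 difference of 0.72. The *Runx1* OE libraries were bounded by 89.4 and 226 and the controls by 61.4 and 143, so an overlap between the groups is possible. Without 1 library the difference could be as low as 0.52 (a *Runx1* OE library) or 0.19 (a control), both short of 1.5-fold. Of all genes tested, 3.38% were at least as much higher. Its exons overlap those of *Gm47118* and *Gm60910* on the other strand, and whether counting used strand was not given in the sources used here.

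*Ece1* encodes endothelin-converting enzyme 1, the membrane protease that releases the active peptide (ENSMUSG00000057530, GRCm39 chromosome 4, 137589548 to 137692540, plus strand). Its mean was 2353 normalized counts in *Runx1* OE and 1561 in the controls, a log2 difference of 0.59. The limits were 1591 to 2701 for *Runx1* OE and 1161 to 2052 for the controls and overlapped. A difference at least as high was found for 5.08% of genes tested. The value sits at the threshold, and it was 0.58, just short of it, once the group means were rescaled to a median difference of 0. Without 1 library it could be as low as 0.52 (a *Runx1* OE library) or 0.20 (a control).

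Promoter windows of *Edn1*, *Ece1* and *Ednra* are shown because RUNX1 is a transcription factor that binds DNA. Of the 4 windows of *Ece1*, the 2 printed were picked because they hold the RUNX core, and the other 2, at the first start of the gene, hold no match. Each is a RefSeq window on GRCm38.p6 from 250 bases before to 50 bases after an annotated start, read along the gene's strand. Capitals mark the RUNX core (TGTGGT or TGCGGT) and the GATA site (AGATAA), searched on both strands, so a match on the opposite strand appears as its reverse complement.
Edn1, chr13:42301226-42301525, plus strand: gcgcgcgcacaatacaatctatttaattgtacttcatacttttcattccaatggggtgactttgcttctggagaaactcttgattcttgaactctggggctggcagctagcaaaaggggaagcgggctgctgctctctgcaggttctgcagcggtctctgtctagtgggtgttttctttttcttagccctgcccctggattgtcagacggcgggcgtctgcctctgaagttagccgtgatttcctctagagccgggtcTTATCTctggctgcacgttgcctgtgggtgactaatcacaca
Ece1, chr4:137913308-137913607, plus strand: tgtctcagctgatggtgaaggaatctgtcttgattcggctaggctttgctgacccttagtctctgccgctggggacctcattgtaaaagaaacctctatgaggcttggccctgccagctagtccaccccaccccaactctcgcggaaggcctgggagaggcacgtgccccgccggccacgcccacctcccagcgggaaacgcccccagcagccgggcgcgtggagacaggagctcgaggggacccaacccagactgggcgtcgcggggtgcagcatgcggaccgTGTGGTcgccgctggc
Ece1, chr4:137920543-137920842, plus strand: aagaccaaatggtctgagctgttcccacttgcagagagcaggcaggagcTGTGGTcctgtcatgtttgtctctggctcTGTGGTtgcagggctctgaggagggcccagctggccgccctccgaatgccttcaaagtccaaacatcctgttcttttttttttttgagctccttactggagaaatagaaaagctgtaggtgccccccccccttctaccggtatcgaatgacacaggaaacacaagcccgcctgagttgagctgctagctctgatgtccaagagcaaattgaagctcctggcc
Ednra, chr8:77724403-77724702, minus strand: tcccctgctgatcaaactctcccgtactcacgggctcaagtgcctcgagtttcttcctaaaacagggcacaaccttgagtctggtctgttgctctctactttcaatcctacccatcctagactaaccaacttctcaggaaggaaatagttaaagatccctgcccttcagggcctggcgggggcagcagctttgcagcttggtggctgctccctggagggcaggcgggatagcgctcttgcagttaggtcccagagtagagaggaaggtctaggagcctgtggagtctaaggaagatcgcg

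The RUNX core was found in 2 of the 12 windows of 8 members (16.7%), against 20.6% of 13768 windows of the genes tested and 22.4% of all 32851 windows. Both belong to internal starts of *Ece1*, with a single match 34 bases after the start in one and matches 201 and 172 bases before it in the other. The GATA site was found in 1 window (8.33%), that of *Edn1*, on the opposite strand 8 bases after the start, against 6.60% of windows of the genes tested. The matches describe letters in these windows and say nothing of binding.

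*Ednra* encodes ETA (ENSMUSG00000031616, GRCm39 chromosome 8, 78389660 to 78451093, minus strand). Its mean was 645 normalized counts in *Runx1* OE and 947 in the controls, a change of -31.9%, or -0.55 on the log2 scale. With limits of 534 to 778 and 838 to 1030, all 4 *Runx1* OE libraries were below both controls. The size of the difference was short of 1.5-fold, and 4.21% of genes tested were at least as low. Exons of *4933431K23Rik* and *Gm45714* overlap it on the other strand.

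*Ednrb* encodes ETB (ENSMUSG00000022122, GRCm39 chromosome 14, 104052061 to 104081838, minus strand). Its mean was 714 normalized counts in *Runx1* OE and 599 in the controls, with overlapping limits of 568 to 802 and 510 to 715. Of the genes tested, 18.0% were at least as much higher. Per kilobase of exon, *Ednra* made up 44.1% of the 2 endothelin receptor RNAs in the controls and 31.1% in *Runx1* OE, a ratio of *Ednra* to *Ednrb* of 0.789 and 0.451. The lengths join all GENCODE M39 exons of a gene, 9005 bases for *Ednra* and 4496 for *Ednrb*, and may not match the transcripts that were counted. Before division by length *Ednra* was the higher of the 2 in the controls, at 947 against 599, so that order depends on the lengths.

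*Agt* encodes angiotensinogen, the precursor of all angiotensin peptides (ENSMUSG00000031980, GRCm39 chromosome 8, 125283273 to 125296445, minus strand). Its mean was 56.3 normalized counts in *Runx1* OE and 84.7 in the controls, a log2 difference of -0.58 that fell just short of the threshold with the pseudocount of 1. It passed with a pseudocount of 0.5, at -0.59. The controls could hold 72.9 to 94.0 and the *Runx1* OE libraries 22.8 to 94.0, so at least part of the *Runx1* OE group must have been well below the controls, but not necessarily all of it. A difference at least as low was found for 3.82% of genes tested. Its exons overlap those of *Capn9* and *Cog2* on the other strand.

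*Ace* encodes angiotensin-converting enzyme, which is abundant on endothelium (ENSMUSG00000020681, GRCm39 chromosome 11, 105858771 to 105880790, plus strand). Its mean was 609 normalized counts in *Runx1* OE and 547 in the controls, with limits of 415 to 734 and 398 to 711. The groups' limits overlap over most of their range, and 28.0% of genes tested had a difference at least as high as its 0.15. *Gm11651* overlaps its exons on the other strand.

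*Agtr1a* encodes the main type 1 angiotensin receptor of the mouse (ENSMUSG00000049115, GRCm39 chromosome 13, 30520424 to 30566850, plus strand). Its mean was 711 normalized counts in *Runx1* OE and 840 in the controls, a log2 difference of -0.24 that 15.3% of genes tested matched or exceeded downward. Limits of 489 to 851 and 799 to 851 overlapped. The closely similar gene *Agtr1b* was not listed, and reads that the pair may share were not measured here. *Agtr2*, the type 2 receptor (ENSMUSG00000068122, GRCm39 chromosome X, 21350783 to 21355403, plus strand), was near the low end of what was tested. Its means were 13.8 and 12.2 normalized counts, with limits of 4.88 to 22.2 and 4.82 to 19.8. Per kilobase of exon, *Agtr1a* made up 98.1% of the 2 angiotensin receptor RNAs in the controls and 97.5% in *Runx1* OE.

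**Figure D2:**
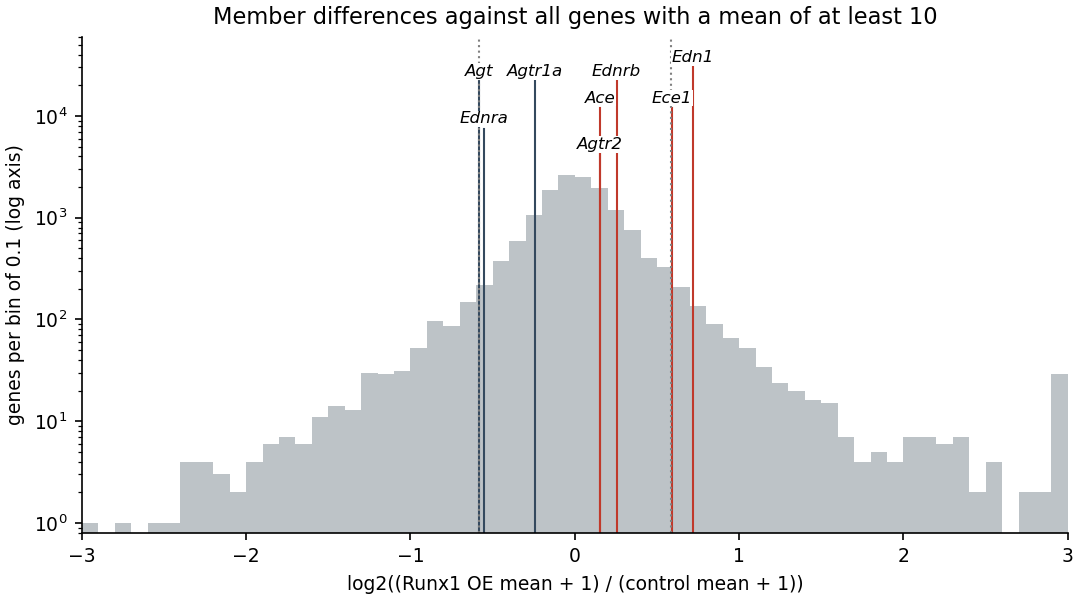
Number of genes (log axis) in bins of 0.1 of the log2 difference between *Runx1* OE and control means, over 15181 genes, with the 8 members marked (red above 0, blue below) and dotted lines at 1.5-fold. The end bins also hold all genes beyond the axis, and the members lie between -0.58 for *Agt* and 0.72 for *Edn1*.

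Divided by exon length, the levels in the controls ran from *Ece1* at 235 normalized counts per kilobase through *Agtr1a* at 182, *Ednrb* at 133, *Ednra* at 105, *Ace* at 97.9, *Edn1* at 35.8 and *Agt* at 10.3 to *Agtr2* at 3.56. The limits of neighbours overlapped for *Ece1* and *Agtr1a*, for *Ednrb* and *Ednra*, and for *Ednra* and *Ace*, so the order within these pairs is not settled. In *Runx1* OE, *Ece1* at 354 normalized counts per kilobase was above every other member, followed by *Ednrb* at 159, *Agtr1a* at 154, *Ace* at 109, *Ednra* at 71.6, *Edn1* at 59.2, *Agt* at 6.82 and *Agtr2* at 4.00. Here the limits of *Ednrb* through *Edn1* overlapped from each gene to the next, as did those of *Agt* and *Agtr2*. By its mean per kilobase, *Ednra* stood above *Ace* in the controls and below it in *Runx1* OE. Before division by length *Ednra* was above *Ace* in the controls (947 against 547) and in *Runx1* OE (645 against 609). The change of order therefore depends on the exon lengths used. By their means, the ligand precursors were below their receptors in both groups, apart from *Agtr2*.

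**Figure D3:**
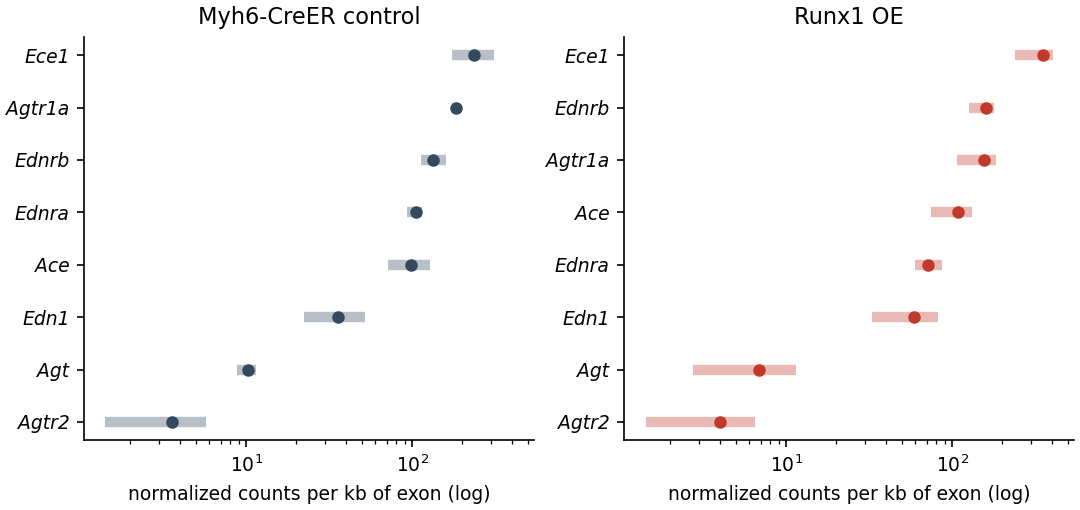
Normalized counts per kilobase of exon (log axis) of the members in each group, ordered by level, with the group mean as a point and the library limits as a bar. By their means per kilobase *Ece1* is highest in both groups and *Agtr2* lowest, and *Ednra* is above *Ace* in the controls and below it in *Runx1* OE.

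Of the 9 endothelin processing and clearance genes, 4 reached the mean of 10 normalized counts, and of these 0 were past 1.5-fold in either direction, with a median of -0.09. Over all genes tested 5.18% were at least 1.5-fold higher and 3.76% lower. *Furin*, a convertase that makes the first cut in the endothelin precursor, averaged 2576 normalized counts with *Runx1* OE and 2448 in the controls. *Pcsk6*, a related convertase, had means of 1397 and 1858, a log2 difference of -0.41. Of 17 further renin-angiotensin genes, 10 were tested and 0 were past 1.5-fold, with a median of 0.01. The most abundant of them were the lysosomal protease *Ctsd*, at 7170 and 7831 normalized counts, and *Lnpep*, the angiotensin IV-binding aminopeptidase, at 1646 and 1633. *Ren1*, which encodes renin, was not listed.

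Kinins are broken down by ACE, and aldosterone is released in response to angiotensin II. In the kinin list, 2 of 8 genes were tested and 0 were past 1.5-fold, with a median of -0.22. Over all genes tested 5.18% were at least 1.5-fold higher and 3.76% lower. The carboxypeptidase *Cpm* had a mean of 201 normalized counts in both groups, and the bradykinin receptor *Bdkrb2* had 18.1 in *Runx1* OE and 25.0 in the controls. In the mineralocorticoid list, 3 of 8 were tested and 0 were past 1.5-fold, with a median of -0.07. *Sgk1*, a kinase induced by corticosteroids, had means of 826 and 867 normalized counts, and *Nr3c2*, the mineralocorticoid receptor, had 192 and 262.

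The endothelin receptors and the type 1 angiotensin receptor can signal through Gq and G12/13, and all 22 genes listed for these steps were tested. Of these, 2 were at least 1.5-fold higher and 1 was lower, where 5.18% and 3.76% of all genes tested were, and the median was -0.02. *Plcb4*, a phospholipase C activated by Gq, averaged 1528 normalized counts with *Runx1* OE, against 901 in the controls, a log2 difference of 0.76. Its limits of 1229 to 1608 and 762 to 1102 did not overlap, although the difference could be 0.47 without 1 control. *Grk5*, a kinase that desensitizes G protein-coupled receptors, was lower at 439 against 677 normalized counts, or -0.62 on the log2 scale. Its limits of 368 to 525 and 652 to 684 did not overlap either, and without 1 library its difference could be -0.55 (a *Runx1* OE library) or -0.57 (a control). Over all genes with limits, 1.13% were separate with *Runx1* OE higher, as *Plcb4* was, and 4.12% with it lower, as *Grk5* was. *Prkcb*, a protein kinase C gene, was higher at 15.3 against 8.69 normalized counts, with overlapping limits and a difference of 0.75 that could be 0.36 without 1 control. The most abundant genes of the list were *Rhoa*, at 5423 and 5239 normalized counts, and its effector kinase gene *Rock2*, at 2278 and 2526.

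Of 10 genes that endothelin 1 and angiotensin II are known to induce in cardiomyocytes, 3 were at least 1.5-fold higher and 0 lower, where 5.18% and 3.76% of all genes tested were. Their median was 0.26, and the library limits of the groups overlapped for all 10. *Nppa*, which encodes atrial natriuretic peptide, averaged 1420 normalized counts with *Runx1* OE, against 288 in the controls, a log2 difference of 2.30. Its limits were 336 to 3068 and 80.2 to 513, and the highest *Runx1* OE library held 54.0% of its group's total, without which the difference was 1.59. *Nppb*, the B-type natriuretic peptide gene, had means of 1044 and 330, with limits of 80.5 to 2658 and 31.1 to 655. A single *Runx1* OE library held 63.6% of its group's total of *Nppb*, and the log2 difference was 1.66 with that library and 0.61 without it. The immediate early gene *Fos* had means of 74.7 and 43.9, and its difference of 0.76 could be as low as 0.06 without 1 control. The most abundant genes of the list were *Jun*, at 1737 and 2105 normalized counts, and the calcineurin regulator *Rcan1*, at 1459 and 1172. All 4 atrial cardiomyocyte markers, *Sln*, *Myl7*, *Myl4* and *Bmp10*, were at least 1.5-fold higher, with a median of 1.60 and normalized counts that summed to 361 in *Runx1* OE and 117 in the controls. Library limits of the groups overlapped for all 4. A single *Runx1* OE library could hold up to 58.6% of its group's total of *Sln*, 50.8% of *Myl7* and 50.4% of *Myl4*. Means were low for *Sln* (22.2 and 2.53) and *Bmp10* (13.2 and 4.08). *Nppa* is also an atrial gene, and the part of atrial tissue in its difference was not tested.

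**Figure D4:**
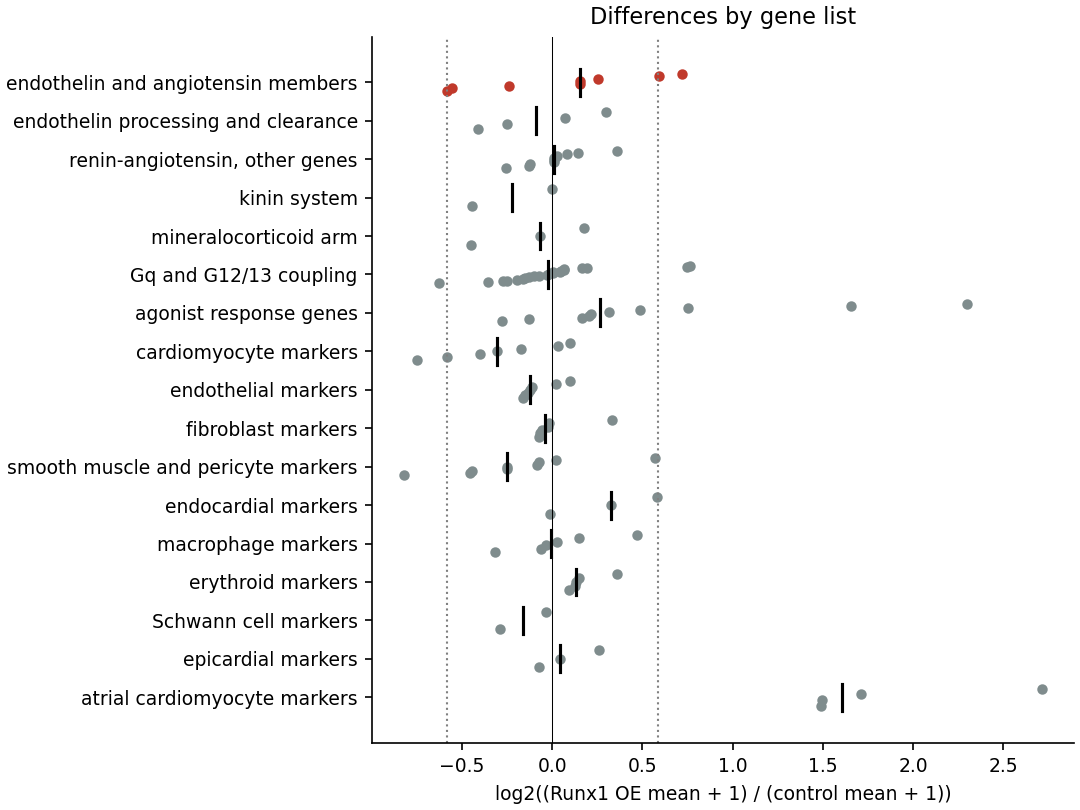
Log2 difference between *Runx1* OE and control means for each tested gene of the members, the pathway lists and the cell type marker lists, with 1 point a gene (members in red), black bars at the medians and dotted lines at 1.5-fold. Among the pathway genes *Nppa* is highest at 2.30 and *Grk5* lowest at -0.62, and the 4 atrial markers are all above 1.5-fold.

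Markers of the cells that carry these receptors and enzymes differed between the groups by differing amounts. The 7 cardiomyocyte markers had a median of -0.31, with 5 below 0 and 2 above, *Myl2* at 0.10 and *Tnni3* at 0.03. Only *Ryr2* was lower by 1.5-fold, and its limits overlapped, at 3070 to 9734 in *Runx1* OE and 9102 to 10550 in the controls. Normalized counts of the list summed to 418698 in *Runx1* OE and 505873 in the controls. Much of that gap was *Myh6*, with means of 110044 and 164720. The 9 smooth muscle and pericyte markers had a median of -0.25 and a summed level of 25388 against 31106. Among them only *Abcc9* was lower by 1.5-fold, at 3783 and 6680 normalized counts, and only its limits did not overlap. *Abcc9* made up a large part of the fall in the summed level, and which cells its RNA came from was not tested. The other 8 were not past 1.5-fold and ran from -0.46 for *Acta2* to 0.57 for *Tagln*. Over all genes tested 3.76% were at least 1.5-fold lower, and over those with limits 4.12% were separate in that direction. Of the smooth muscle and pericyte markers 7 were below 0 and 2 above, *Tagln* at 0.57 and *Cspg4* at 0.02. Both lists had medians below 0, as *Ednra* was lower, and their part in its difference was not tested. The 7 endothelial markers had a median of -0.12 and a summed level of 19500 normalized counts in *Runx1* OE against 21112 in the controls, with 0 past 1.5-fold, and the 3 endocardial markers a median of 0.33, with 0 past 1.5-fold. The direction of *Edn1* and *Ece1* was thus that of the endocardial median and not of the endothelial median. Within the endocardial list *Npr3* (0.33) and *Plvap* (0.58) were above 0 and *Nfatc1* was at -0.01, and the limits overlapped for all 3. Of the 7 endothelial markers 5 were below 0 and 2 above, *Emcn* (0.10) and *Egfl7* (0.02). The part of either cell type in the differences of *Edn1* and *Ece1* was not tested. The 6 fibroblast markers had a median of -0.04, the 6 macrophage markers -0.00, the 5 erythroid markers 0.13, the 3 epicardial markers 0.04 and the 2 tested Schwann cell markers -0.16. No listed marker had a group mean of 0.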

How the data were processed

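RNA of 6 ventricular samples was sequenced from oligo-dT libraries. Per the study's methods, reads were aligned with STAR to mm39, quantified to Ensembl transcripts with Partek E/M and normalized by the median ratio method, whereas HISAT2 and mm9 are named in the submitters' processing notes. Of 19079 gene identifiers, 18992 are in GENCODE M39 and all of these overlap their gene on GRCm39. The deposited signal values are normalized counts, and the authors gave group means (taken as means of 4 *Runx1* OE and 2 control libraries) and the mean, maximum and geometric mean over all libraries. The table also holds the authors' fold changes and p-values, which were not used.

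A second table holds 6 columns of values per sample. Their names match no sample's labels, so they were not used. Groups were not inferred from the values in these columns, including those of *Runx1*, the gene switched on by design. The planned limma test therefore was not run. The depth of each sample was not analysed here, and the mean total was 19422828 normalized counts per library, so the precision of a single library is unknown.

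The 15181 genes whose overall mean reached 10 normalized counts were compared at a pseudocount of 1 and a 1.5-fold threshold. Library limits, a method chosen after seeing the data, took the *Runx1* OE mean as within 1% of the arithmetic mean of its libraries. The control mean was allowed a wider margin. For 100% of the genes tested the total rebuilt from the group means was within 1% of the authors' total, and 1 gene gave no limits. The calculation was tested on simulated data. Nothing says that samples came from separate litters.

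The text names all members, every tested gene of the pathway lists past the threshold and the 2 most abundant genes of each pathway list. *Runx1*, *Xist* and the markers are named as checks. Members and lists were chosen with earlier results of these data known. Promoters are from RefSeq (GRCm38.p6) and matched 8 of 9 members, all but *Agtr1a*. Alternatives were other pseudocounts, thresholds, filters and scalings. Python 3.11.15, numpy 2.4.6, pandas 2.3.3 and matplotlib 3.10.9 were used.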

Additional observations from a re-analysis of the deposited data

How the results depend on the processing

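The number of genes past the threshold was 1357. It was 2908 with no filter on low values, 725 with a mean of at least 50, 3647 at a looser threshold (0.32 on the log2 scale) and 415 at 2-fold. Of the members, 2 passed at 1.5-fold, 4 at the looser threshold and 0 at 2-fold, and of the pathway list genes 6, 12 and 2. *Ece1* and *Agt* sit at the threshold. Rescaling the group means to a median difference of 0 took *Ece1* to 0.58, below it, and *Agt* to -0.59, past it. The median of the members stayed between 0.14 and 0.20 over the alternatives. Leaving out 1 library could be done only as the range that the library limits allow, an alternative chosen after seeing the data. The log2 difference ranged from 0.19 to 1.39 for *Edn1*, 0.20 to 1.02 for *Ece1*, -0.68 to -0.38 for *Ednra*, -0.94 to -0.32 for *Agt* and -0.34 to -0.10 for *Agtr1a*. It could change sign for *Ednrb* (-0.0015 to 0.49), *Agtr2* (-0.49 to 1.34) and *Ace* (-0.22 to 0.61). No paired analysis was possible because the value columns could not be matched to samples, and for the same reason the replicate block, the removal of single named replicates and the limma test were not run. Apart from the removal of libraries, 52 of the recomputed values kept their direction and their size within the limits set, and 8 did not. Rescaling to equal totals moved the median of all genes from 0.01 to 0.06. Since no value was tied to a sample, no error is given for a difference.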
